A study of Mus musculus with 8 samples.

Results

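The erythroid and haemoglobin genes were followed on 8 one-colour arrays of mouse liver RNA. Members were the probes whose gene name in the files was Hba-a1, Hba-a2, Hbb-b1, Hbb-b2, Alas2, Slc4a1 or Ahsp, with other spellings of the adult haemoglobin names allowed. All 7 names were found, and Hbb-bt was added as another spelling, which gave 8 probes of 8 genes among 22372 named genes on the array. Each of the 8 probes had 1 spot per array. Of them, 7 were well above background on all 8 arrays, and the Ahsp probe was so on 1 array.

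All samples were livers of male mice in which fibrosis had been induced for 5 weeks with TAA (the usual abbreviation of thioacetamide; the labels give the abbreviation alone) or with CCl4 (carbon tetrachloride). The mice were then observed for 1 or 2 weeks and were injected every 3 days with miR-29a or with a negative control nucleotide (NC). Both oligonucleotides were given with TAA and with CCl4 and at both times, which makes 8 combinations with 1 array each, and no untreated livers were among the arrays used. Whether 1 animal or several made up a sample is not given in the labels, nor are strain and age. Blood was drawn before the livers were taken, and the labels do not say whether the livers were flushed of blood.

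Adult haemoglobin joins α chains, encoded in mouse by Hba-a1 and Hba-a2, with β chains from the Hbb locus, and each chain carries a haem. Alas2 is the X-linked, erythroid form of the enzyme that begins haem synthesis. Slc4a1 is band 3, the anion exchanger of the red cell membrane, and Ahsp is a chaperone of free α chains. Liver makes red cells in the fetus. In the adult these genes are expressed mainly in the marrow and, in mouse, in the spleen, and young red cells still carry their transcripts into blood.

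Several globin probes list more than 1 gene, so the sequences are given before the values. The files list the accessions of both α genes for the Hba-a1 probe (mm9 chr11:32183955-32184014, plus strand) and for the Hba-a2 probe (mm9 chr11:32197245-32197304, plus strand). The Hbb-b2 probe, which the files place nowhere on the genome, lists Hbb-b1 and Hbb-b2. The Hbb-b1 probe (mm9 chr7:110976379-110976438, minus strand) lists Hbb-b1 and Hbb-bs, and the Hbb-bt probe (mm9 chr7:110961105-110961164, minus strand) lists Hbb-bt alone. Of the Hbb-b1 probe's 60 bases, 46 could be set against the start of the RefSeq gene Hbb-bs, with 0 mismatches, and 45 against Hbb-bt, with 7. The 60 bases of an α probe and a β probe are shown as the letters that were read out, with no part marked.
Hba-a1 probe: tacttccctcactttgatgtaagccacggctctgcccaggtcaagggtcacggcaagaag
Hbb-b2 probe: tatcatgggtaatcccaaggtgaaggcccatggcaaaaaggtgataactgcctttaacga

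The 250 bases before the start of 4 of the genes (RefSeq, GRCm38.p6) were searched for promoter elements that haemoglobin genes are known for. Capitals mark 4 motifs on either strand, where neighbouring or overlapping matches run together. The first is GATAA, a core of the sites of GATA factors (reverse form TTATC). The second, known for Krüppel-like factors, is CACCC (reverse form GGGTG). The third is the CAAT box, searched as CCAAT (reverse form ATTGG), and the last a form of the TATA box, searched as TATAA (reverse form TTATA).
Hba-a1 upstream window, GRCm38.p6 chr11:32283422-32283671, plus strand: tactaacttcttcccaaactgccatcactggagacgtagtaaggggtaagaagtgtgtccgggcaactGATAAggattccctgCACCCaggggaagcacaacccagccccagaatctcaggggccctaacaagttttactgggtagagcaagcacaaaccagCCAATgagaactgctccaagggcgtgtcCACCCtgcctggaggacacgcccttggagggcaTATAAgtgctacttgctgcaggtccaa
Hbb-bs upstream window, GRCm38.p6 chr7:103827929-103828178, minus strand: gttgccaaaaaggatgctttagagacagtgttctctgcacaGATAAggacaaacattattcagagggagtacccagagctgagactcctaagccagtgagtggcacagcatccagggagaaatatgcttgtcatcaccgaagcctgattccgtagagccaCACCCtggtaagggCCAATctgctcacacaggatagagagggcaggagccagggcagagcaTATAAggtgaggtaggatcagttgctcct
Hbb-bt upstream window, GRCm38.p6 chr7:103813924-103814173, minus strand: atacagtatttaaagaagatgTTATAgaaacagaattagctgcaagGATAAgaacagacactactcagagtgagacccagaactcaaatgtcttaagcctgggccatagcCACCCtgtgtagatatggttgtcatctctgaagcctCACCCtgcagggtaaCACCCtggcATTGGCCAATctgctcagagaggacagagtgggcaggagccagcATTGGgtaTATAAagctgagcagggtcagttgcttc
Alas2 upstream window, GRCm38.p6 chrX:150547167-150547416, plus strand: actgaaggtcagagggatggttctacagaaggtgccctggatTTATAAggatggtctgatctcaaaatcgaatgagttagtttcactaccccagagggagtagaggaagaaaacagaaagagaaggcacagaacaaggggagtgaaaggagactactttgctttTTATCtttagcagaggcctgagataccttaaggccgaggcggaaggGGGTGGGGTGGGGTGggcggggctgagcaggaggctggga

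Hba-a1 and Hba-a2 share a run of 297 identical bases over their 300-base windows, so only Hba-a1 is printed. All 4 motifs occurred before Hba-a1, Hba-a2, Hbb-bs and Hbb-bt, and 1.01% of 27025 genes had all 4 in a window of this length. Singly, the GATA motif was before 23.0% of the genes, the Krüppel motif before 51.3%, the CAAT box before 34.5% and the TATA form before 23.5%. The Alas2 window held the other motifs but no CAAT box by these letters. Its nearest TATA form lay 207 bases before the start, where the globin genes had theirs at 27 to 30. Matches are descriptions of the letters, and no binding was measured.

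A level is the log2 spot signal minus the 75th percentile of the same array, so 0 is that percentile and 1 unit is 1 doubling. Arrays resembled each other in quality, with 43.9% to 48.4% of spots well above background, 0 saturated spots and a median SD of 0.062 to 0.074 log2 between repeated spots of a probe. That SD is technical, and no spread between livers of 1 combination could be had. The TAA 1-week NC array stood apart. Its summed level of the neutrophil markers kept (7 of 13) was 8.82, against 6.52 to 7.37 on the other 7 arrays, and that of the Kupffer cell markers (12 of 12) was 8.62, against 5.79 to 6.64. All arrays lay on 1 slide, with the TAA arrays in 1 column and the CCl4 arrays in the other, so agent and slide column cannot be told apart. Slide row was likewise fixed by week and oligonucleotide, so neither of these can be told apart from row. The 12 hepatocyte markers summed to 12.99 to 13.32 on every array, a sum that the brightest of them dominate. Single markers could differ more. By the fit given below, TAA minus CCl4 at 1 week was −1.22 log2 for Cps1 and −0.64 for Cyp2e1, and above 0 for 5 of the 12.

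The α-globin probes differed several-fold between livers. The Hba-a1 level in TAA livers was 7.49 with miR-29a and 7.94 with NC at 1 week, and 5.98 with miR-29a and 6.95 with NC at 2 weeks. CCl4 livers gave Hba-a1 levels of 7.73 with miR-29a and 6.31 with NC at 1 week, and 7.71 with miR-29a and 7.85 with NC at 2 weeks. Hba-a1 was lowest on the TAA 2-week miR-29a array and next lowest on the CCl4 1-week NC array, and its range was 3.88-fold. The Hba-a2 level in TAA livers was 9.95 with miR-29a and 9.92 with NC at 1 week, and 8.71 with miR-29a and 9.16 with NC at 2 weeks. CCl4 livers gave Hba-a2 levels of 9.91 with miR-29a and 8.87 with NC at 1 week, and 9.86 with miR-29a and 9.98 with NC at 2 weeks. Hba-a2 split into 3 low arrays (TAA 2-week miR-29a, CCl4 1-week NC and TAA 2-week NC) and 5 high ones between 9.86 and 9.98, whose order the technical SD does not resolve. Its range was 2.41-fold. In whole liver RNA, fewer red cells or their precursors and less of these RNAs per cell cannot be told apart.

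The 3 β-globin probes had the widest ranges of the globins. The Hbb-b1 level in TAA livers was 3.36 with miR-29a and 4.31 with NC at 1 week, and 1.82 with miR-29a and 3.02 with NC at 2 weeks. CCl4 livers gave Hbb-b1 levels of 4.29 with miR-29a and 2.74 with NC at 1 week, and 3.94 with miR-29a and 3.94 with NC at 2 weeks. The Hbb-b2 level in TAA livers was 4.67 with miR-29a and 5.51 with NC at 1 week, and 3.09 with miR-29a and 4.29 with NC at 2 weeks. CCl4 livers gave Hbb-b2 levels of 5.43 with miR-29a and 3.98 with NC at 1 week, and 5.20 with miR-29a and 5.27 with NC at 2 weeks. Both probes put the TAA 2-week miR-29a array lowest, then CCl4 1-week NC, then TAA 2-week NC, with TAA 1-week NC highest. The Hbb-bt level in TAA livers was 6.68 with miR-29a and 7.35 with NC at 1 week, and 5.19 with miR-29a and 6.25 with NC at 2 weeks. CCl4 livers gave Hbb-bt levels of 7.21 with miR-29a and 5.79 with NC at 1 week, and 7.14 with miR-29a and 7.25 with NC at 2 weeks. Hbb-bt kept the same 3 arrays at the low end. The ranges were 5.59-fold (Hbb-b1), 5.35-fold (Hbb-b2) and 4.46-fold (Hbb-bt), and the SD over the arrays was larger than that of 93.7% (Hbb-b1), 93.3% (Hbb-b2) and 91.7% (Hbb-bt) of the 24890 probes kept for testing.

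Slc4a1 (probe at mm9 chr11:102210256-102210315, minus strand) ranged as widely as the globins did. Its level in TAA livers was −1.05 with miR-29a and −0.22 with NC at 1 week, and −2.18 with miR-29a and −1.81 with NC at 2 weeks. CCl4 livers gave Slc4a1 levels of −1.55 with miR-29a and −2.26 with NC at 1 week, and −1.38 with miR-29a and −1.13 with NC at 2 weeks. The 3 arrays with the lowest globin levels were also the 3 lowest for Slc4a1, with CCl4 1-week NC at the bottom, and the range was 4.13-fold.

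The Alas2 probe (mm9 chrX:147004993-147005052, plus strand) varied least. Its level in TAA livers was 5.50 with miR-29a and 4.69 with NC at 1 week, and 5.02 with miR-29a and 5.15 with NC at 2 weeks. CCl4 livers gave Alas2 levels of 5.45 with miR-29a and 5.18 with NC at 1 week, and 5.53 with miR-29a and 5.38 with NC at 2 weeks. The range was 1.80-fold, and the SD was larger than that of 40.8% of the probes kept. Alas2 was lowest on the TAA 1-week NC array, where 4 of the 5 globin probes and Slc4a1 were highest.

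Ahsp, which the files place nowhere on the genome, was well above background on the CCl4 2-week miR-29a array alone, at a level of −3.01. On the other 7 arrays its measured values lay between −5.34 and −3.32, and it was not tested.

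**Figure D1:**
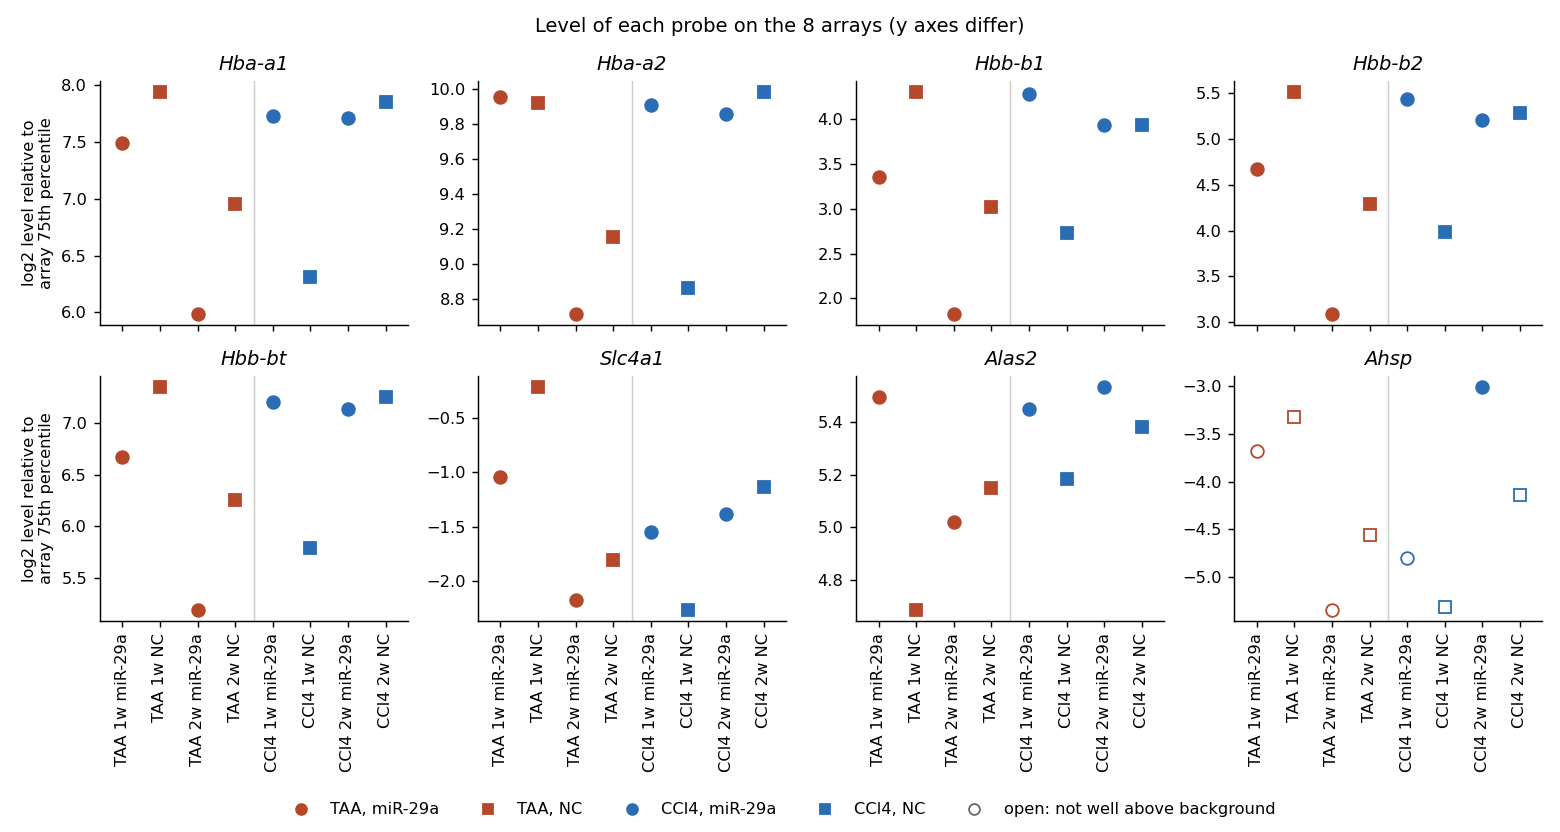
Log2 level relative to the array's 75th percentile (y axis, a separate scale per gene) of each of the 8 probes on the 8 arrays (x axis). TAA is red and CCl4 blue, miR-29a round and NC square, and open symbols were not well above background. The 5 globin panels share 3 low arrays, with Hba-a1 at 5.98 on the TAA 2-week miR-29a array and 6.31 on the CCl4 1-week NC array.

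The globin probes followed each other closely over the 8 arrays. Pearson's r of the 10 pairs of globin probes was 0.906 to 0.998 and Spearman's rho 0.738 to 1 (n = 8 arrays), and r was 0.712 to 0.993 without the 2 arrays farthest from the median. The probes were read on the same 8 labelled RNAs, and both α probes list the same genes, so their agreement is not that of separate samples. Slc4a1, whose probe lists no globin gene, had r of 0.752 to 0.834 with the globin probes, and 0.506 to 0.673 without the 2 farthest arrays. Alas2 had r of 0.190 to 0.355, and −0.194 to 0.192 without those arrays.

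Differences between agents, weeks and oligonucleotides were fitted with limma over all probes kept, with Benjamini-Hochberg adjustment over all of them. TAA against CCl4, over both weeks, gave 0 of 7 members past an adjusted p of 0.05 and 0 of all 24890 probes, or 0% (6830 probes, 27.4%, were under an unadjusted 0.05, with 0 members among them). The differences ran from −0.60 ± 0.57 log2 (Hbb-b1; SE of the fit, n = 4 arrays each) to 0.27 ± 0.47 (Slc4a1). The median of the 7 was −0.31 and that of all probes −0.12.

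The agent difference had opposite signs in the 2 weeks for the 5 globin probes and Slc4a1, below 0 at 2 weeks under every alternative tried and above 0 at 1 week with the exceptions given there. At 2 weeks, the TAA arrays were both below the CCl4 arrays for all 7 members, as for 35.7% of all probes kept. The 2 arrays of an agent in a week were 1 with miR-29a and 1 with NC, and so not replicates. TAA minus CCl4 at 2 weeks was −1.31 ± 0.55 for Hba-a1 (0.40 times the CCl4 level; SE of the fit, n = 2 arrays each) and −0.98 ± 0.36 for Hba-a2. The β probes differed by −1.52 ± 0.67 (Hbb-b1), −1.55 ± 0.63 (Hbb-b2) and −1.47 ± 0.58 (Hbb-bt). Slc4a1 differed by −0.74 ± 0.36 and Alas2 by −0.37 ± 0.24. Without the TAA 2-week miR-29a array the globin differences were −0.86 to −0.60, and without its NC partner −2.24 to −1.37. None of the 7 passed (lowest adjusted p of limma 0.466), and 0 of 24890 probes did at 2 weeks, with 2665 (10.7%) under an unadjusted 0.05, among them 2 members, Hba-a2 and Hbb-bt.

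At 1 week, Slc4a1 was higher in TAA than in CCl4 livers by 1.27 ± 0.36 log2, or 2.42-fold (adjusted p of limma 0.043). It was the 1 member called of 7, where 9235 of all probes (37.1%) were called (at an unadjusted 0.05, 1 member and 49.2% of all probes). Both TAA arrays were above both CCl4 arrays for Slc4a1 and Hba-a2, as for 26.8% of all probes kept. The globin differences at 1 week were 0.69 ± 0.55 (Hba-a1), 0.55 ± 0.36 (Hba-a2), 0.32 ± 0.67 (Hbb-b1), 0.38 ± 0.63 (Hbb-b2) and 0.51 ± 0.58 (Hbb-bt), with adjusted p of limma 0.273 to 0.723. Alas2 differed by −0.23 ± 0.24, and with median scaling by −0.82, which was called (adjusted p of limma 0.038). The Slc4a1 call rested on single arrays and on the scaling. Without the TAA 1-week NC array, which stood apart in neutrophil and Kupffer cell markers, the difference was 0.84 (adjusted p of limma 0.17), and without the CCl4 1-week NC array it was 0.68 (adjusted p of limma 0.14). Whether those markers bear on it was not tested. Scaled to the median of each array, which put the median of all probes at −0.74 in place of −0.15, it was 0.68 (adjusted p of limma 0.14). The call was also lost with quantile normalization, no filter on dim probes or spike-in scaling (adjusted p of limma 0.089, 0.069 and 0.10), and without any 1 of the 2-week arrays (0.074 to 0.083). The globin differences at 1 week had no settled sign. Without the CCl4 1-week NC array they were below 0 for all 5 probes, as low as −0.81 for Hbb-b1, without the TAA 1-week NC array below 0 for Hbb-b1 (−0.21) and Hbb-b2 (−0.068), and under the median scaling those of Hba-a2, Hbb-b1, Hbb-b2 and Hbb-bt lay between −0.27 and −0.05.

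The difference of these differences, TAA minus CCl4 at 2 weeks less the same at 1 week, was −2.01 ± 0.78 for Hba-a1 and −1.53 ± 0.51 for Hba-a2. It was −1.84 ± 0.94 for Hbb-b1, −1.93 ± 0.89 for Hbb-b2 and −1.98 ± 0.83 for Hbb-bt, and −2.01 ± 0.51 for Slc4a1. Alas2 gave −0.15 ± 0.34. The globin values rested in part on single arrays. They were −1.04 to −0.71 without the CCl4 1-week NC array, −3.01 to −2.15 without its miR-29a partner and −1.39 to −1.14 without the TAA 2-week miR-29a array. With spike-in scaling they were −1.34 to −0.87. None of these was called. No member of the 7 passed (adjusted p of limma 0.063 for Slc4a1, 0.11 to 0.25 for the globins and 0.80 for Alas2), where 2935 of all probes (11.8%) did. At an unadjusted 0.05, Hba-a1, Hba-a2 and Slc4a1 were under the threshold, 3 of 7, as were 31.7% of all probes. The median of the 7 was −1.93 and that of all probes 0.05. Slc4a1 passed when probes had to be above background on all 8 arrays (adjusted p of limma 0.045) or after normexp background correction (0.032), and it lay just under the threshold with the TAA 1-week miR-29a array left out (adjusted p of limma 0.050).

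**Figure D2:**
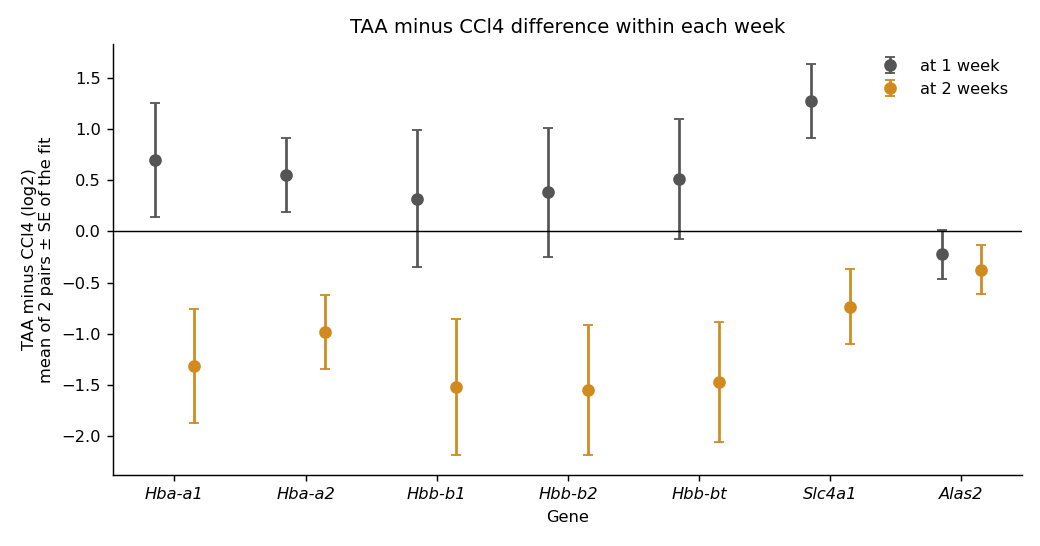
TAA minus CCl4 difference in log2 (y axis; point, fitted mean of 2 pairs of arrays; bar, SE of the fit) of the 7 probes tested (x axis), at 1 week in grey and at 2 weeks in orange. Slc4a1 stands at 1.27 at 1 week and −0.74 at 2 weeks, and Alas2 is below 0 at both.

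The 2-week minus 1-week differences over both agents ran from −0.49 ± 0.57 (Hbb-b1) to 0.07 ± 0.18 (Alas2), with 0 of 7 members and 0 of all probes called, or 0% (1254, or 5.04%, under an unadjusted 0.05, with 0 members). The globin probes were lower at 2 weeks in both TAA pairs of arrays, and the CCl4 pairs differed in direction. In TAA livers the 5 globin probes differed by −1.58 to −1.24 log2 with miR-29a and by −1.29 to −0.76 with NC. In CCl4 livers they differed by −0.35 to −0.02 with miR-29a and by 1.12 to 1.54 with NC. Of all probes kept, 3.34% were lower by more than 1 log2 in the TAA miR-29a pair and 6.56% in the TAA NC pair. In the CCl4 NC pair 5.48% were higher by more than 1 log2. Each of these differences is 1 array against 1 and has no error of its own.

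miR-29a against NC over all 4 pairs gave differences of −0.18 ± 0.47 (Slc4a1) to 0.28 ± 0.18 (Alas2; SE of the fit, n = 4 arrays each), and 0 of 7 members and 0 of all probes were called, or 0% (650, or 2.61%, under an unadjusted 0.05, with 0 members). Hba-a1 differed by −0.03 ± 0.54. For the globins the means near 0 came from pairs that pointed different ways. In the CCl4 1-week pair all 5 globin probes were higher with miR-29a by more than 1 log2, against 1.14% of all probes kept, with Hbb-b1 at 4.29 with miR-29a and 2.74 with NC. In the TAA 2-week pair Hbb-b1, Hbb-b2 and Hbb-bt were lower with miR-29a by more than 1 log2, against 1.24% of all probes kept. In the CCl4 2-week pair the globin differences were between −0.14 and −0.00. In the TAA 1-week pair they ran from −0.95 (Hbb-b1) to 0.03 (Hba-a2). The dependence of the oligonucleotide difference on agent was −1.85 ± 0.95 for Hbb-b1 and on week −0.90 ± 1.18, with 0 of 7 members and 0 of all probes called by limma in either, or 0% (339 probes, 1.36%, and 431 probes, 1.73%, under an unadjusted 0.05, with 0 members in either).

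**Figure D3:**
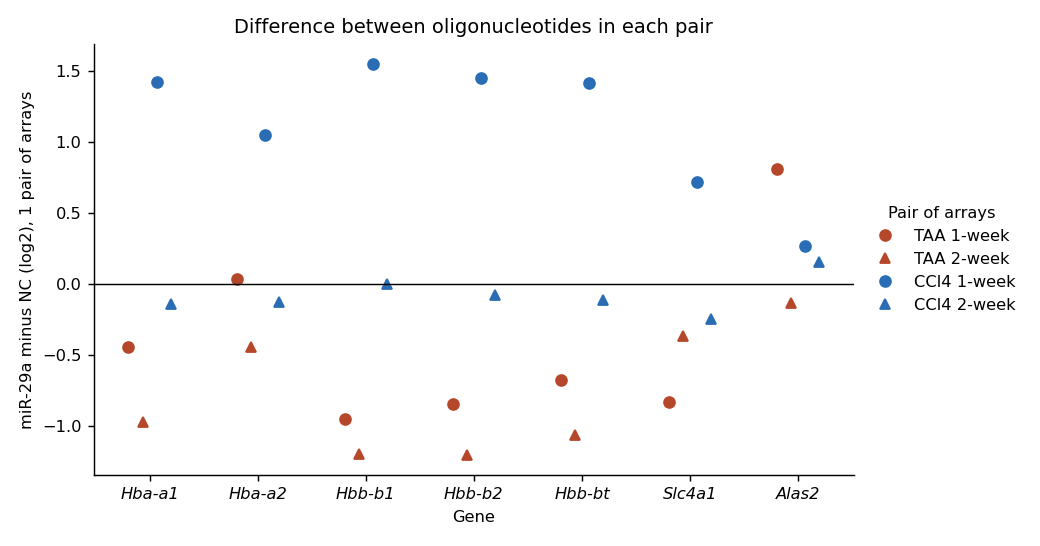
miR-29a minus NC difference in log2 (y axis) of the 7 probes tested (x axis) in each of the 4 pairs of arrays, TAA in red, CCl4 in blue, 1 week as circles and 2 weeks as triangles. The CCl4 1-week pair is at 1.05 to 1.55 for the 5 globin probes, and the TAA 2-week pair at −1.20 to −0.44.

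Of 16221 genes compared, those whose pattern over the 8 arrays was most like the mean of the 7 members were few. Pearson's r was above 0.9 for 10 probes (n = 8 arrays), 9 of them with a gene name. Slc6a20a, an amino acid transporter, had r of 0.978 and a range of 2.20-fold. Mkrn1, an E3 ubiquitin ligase, had r of 0.955 at a range of 1.74-fold, and a second Mkrn1 probe had r of 0.04. Zdhhc22, a palmitoyltransferase, had r of 0.953 and a range of 3.49-fold, and its second probe was not above background. Sik2, Selenow, Crlf3, Pelp1 and Ppm1m had r of 0.910 to 0.913 with ranges of 1.19-fold to 1.67-fold. These genes were picked for the likeness, which is therefore no test.

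The Slc6a20a level shows how far the likeness went. In TAA livers it was −0.85 with miR-29a and −0.80 with NC at 1 week, and −1.85 with miR-29a and −1.49 with NC at 2 weeks. CCl4 livers gave Slc6a20a levels of −0.71 with miR-29a and −1.56 with NC at 1 week, and −0.79 with miR-29a and −0.79 with NC at 2 weeks. The same 3 arrays were lowest as for the globins, and the other 5 lay between −0.85 and −0.71.

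**Figure D4:**
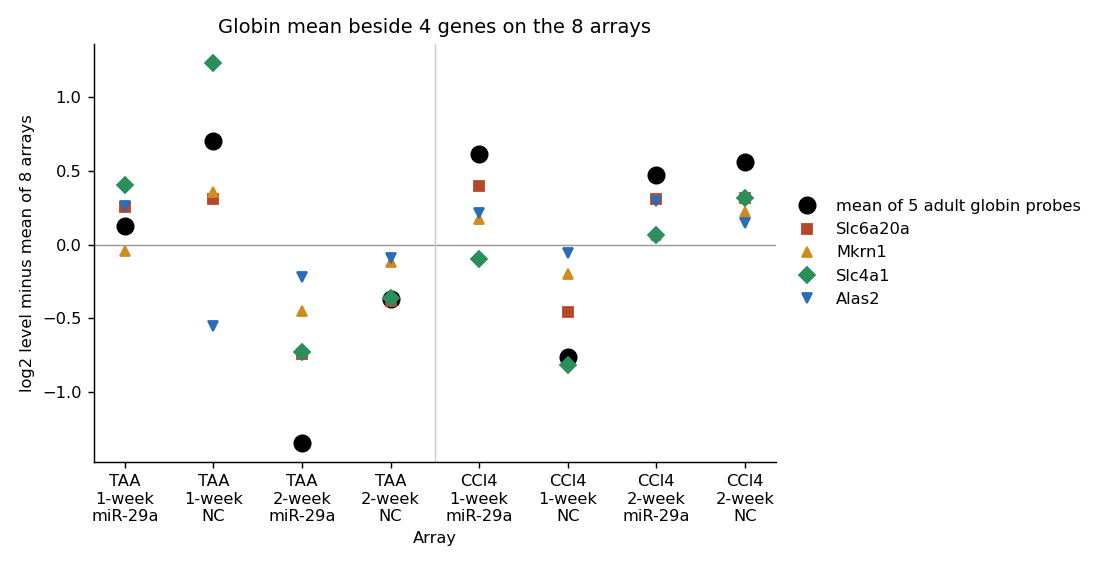
Log2 level minus the gene's mean over the 8 arrays (y axis) for the mean of the 5 adult globin probes and for Slc6a20a, Mkrn1, Slc4a1 and Alas2 on the 8 arrays (x axis). The globin mean lies at −1.34 on the TAA 2-week miR-29a array and −0.76 on the CCl4 1-week NC array, with Slc6a20a and Slc4a1 below 0 on both and Alas2 lowest on the TAA 1-week NC array.

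Other genes of the red cell lineage mostly did not follow the globins. Of 75 genes in 5 erythroid lists, 50 were kept, and 17 of the 25 that were not were above background on 0 arrays. Those 17 included Gata1 and Gfi1b, transcription factors of erythroid precursors, Rhd and Rhag of the Rh complex, and Sptb and Ank1 of the red cell skeleton. Among the 50 kept, r with the globin mean was above 0.9 for 2 (Mkrn1 among them), between 0.5 and 0.9 for 5 (Ube2o, Nxpe2, Tent5c, Bpgm and Epb41), between −0.5 and 0.5 for 42 and below −0.5 for Tfrc, the transferrin receptor.

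**Figure D5:**
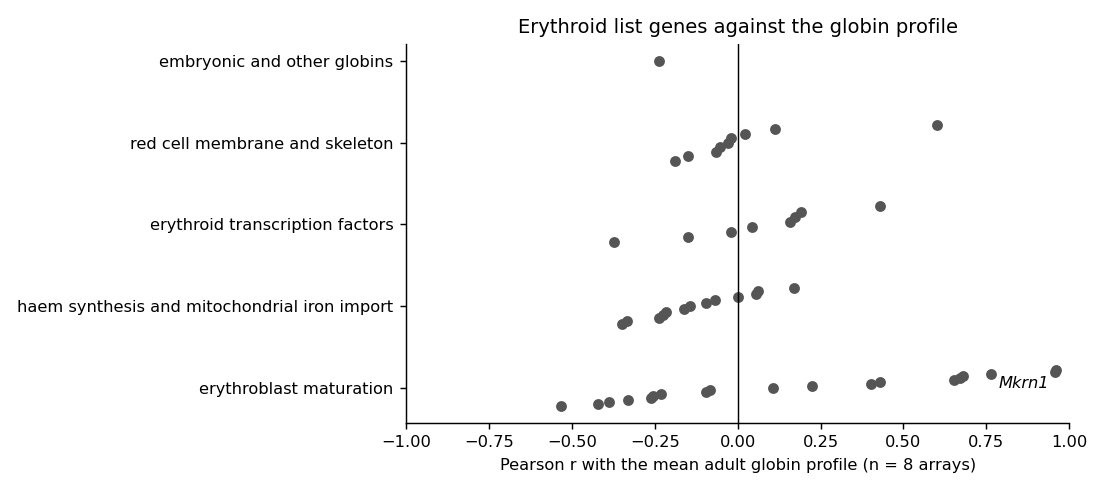
Pearson's r of each kept gene with the mean profile of the 5 adult globin probes (x axis; n = 8 arrays) in 5 erythroid lists (rows). Mkrn1 stands above 0.9, and 42 of the 50 genes lie between −0.5 and 0.5.

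Of the embryonic and other globins, 1 of 6 was kept. Hbb-bh2, well above background on 4 arrays, lay between −4.97 (TAA 1-week NC) and −2.74 (CCl4 1-week NC). It passed no test with the main scaling, where TAA minus CCl4 at 1 week was −1.14. With median scaling (−1.73) and with spike-in scaling (−1.60) it was called lower at 1 week. The embryonic chains Hbb-y, Hbb-bh1 and Hba-x were above background on 3, 2 and 1 arrays.

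Of the haem synthesis and mitochondrial iron genes, 13 of 13 were kept. At 1 week 6 were lower and 1 was higher in TAA than in CCl4 livers (list median −0.54, all probes −0.15), against 23.1% of all probes lower and 14% higher. Alad, an enzyme of the pathway, differed by −1.18 ± 0.15 and Fech (ferrochelatase), which inserts the iron, by −0.63 ± 0.13 (adjusted p of limma 0.0053 and 0.017). At 2 weeks 0 were called. The difference between weeks was called for 4, all above 0, among them Tmem14c, a porphyrin transporter, at 1.54 ± 0.22 and Alad at 1.13 ± 0.21 (adjusted p of limma 0.026 and 0.033; list median 0.40), where 6.64% of all probes were called above 0. The globin values, none of which passed, have the opposite sign. The 4 calls held under the other normalizations and scalings tried (normexp, quantile, median, spike-in), but calls at 1 week were lost. With quantile normalization Fech and 1 other of the 6 lower calls were lost. The 1 higher call, Slc25a37 (mitoferrin 1) at 0.68 ± 0.17, was lost with median scaling, which called 9 of the list lower, and with spike-in scaling, which called 7 lower. Without any 1 of the CCl4 arrays or the TAA 2-week arrays, 0 of all probes were called for agent by week, these included. Alas1, the form of the first enzyme that hepatocytes use, ranged from 5.25 (CCl4 2-week NC) to 8.52 (TAA 1-week miR-29a) and was not called at 1 week or for agent by week.

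Of the red cell membrane and skeleton genes, 9 of 20 were kept. At 1 week 2 were higher in TAA livers, Ermap at 1.40 ± 0.15 and Epb41 (protein 4.1) at 0.55 ± 0.13, and 5 were lower, among them Dmtn (dematin) at −2.22 ± 0.22 and Xk at −1.41 ± 0.17 (adjusted p of limma 0.0044 to 0.025 over the 7), where 14% of all probes were higher and 23.1% lower. With median scaling Epb41 turned below 0 and its call was lost, as it was with spike-in scaling. The call of Xk, well above background on 6 of the 8 arrays, was lost with normexp, and that of Tspan33 with quantile normalization. The agent by week difference was called for Dmtn at 1.54 ± 0.31, Epb41 at −0.93 ± 0.18 and Ermap at −1.04 ± 0.20 (adjusted p of limma 0.036 to 0.039), where 6.64% of all probes were called above 0 and 5.15% below, and with median or spike-in scaling the calls of Epb41 and Ermap were lost, with quantile normalization that of Dmtn. Of the erythroid transcription factors, 8 of 12 were kept, and Klf1 and Sox6 were lower in TAA livers at 1 week, at −0.73 ± 0.21 and −1.07 ± 0.21 (adjusted p of limma 0.042 and 0.016), calls that were lost with normexp. These 2 of 8 are near the 23.1% of all probes called lower, and with median scaling 5 were lower. Sox6 was well above background on 5 of the 8 arrays. The factors other than Klf1 and Sox6 passed neither test.

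Of the erythroblast maturation genes, 19 of 24 were kept, and 5 were lower in TAA livers at 1 week, among them Hemgn (hemogen) at −1.47 ± 0.18 and Gclm, a glutathione synthesis subunit, at −1.60 ± 0.14. These 5 of 19 are near the same 23.1%, and 8 were lower with normexp, 13 with median scaling, 10 with spike-in scaling and 4 with quantile normalization. Gclm at 1.51 ± 0.20 and Car1 (carbonic anhydrase) at 1.19 ± 0.24 were called for agent by week, 2 of 19, where 6.64% of all probes were called above 0. Mkrn1 differed by −0.59 ± 0.31 for agent by week and did not pass (adjusted p of limma 0.26). Of the genes of iron and haem handling in liver, 21 of 24 were kept. Hp (haptoglobin), which binds free haemoglobin, was higher in TAA livers at 1 week by 0.74 ± 0.20, Bmp6 was lower at −1.92 ± 0.20, and Hjv and Blvra were also lower (adjusted p of limma 0.0045 to 0.039 over the 4), which is 1 higher and 3 lower of 21, against 14% and 23.1% of all probes. The Hp call was lost with quantile normalization, median scaling and spike-in scaling, and that of Blvra with quantile normalization. With median scaling 9 of the list were lower, and with spike-in scaling 6. Bmp6 was well above background on 6 of the 8 arrays. For agent by week it was the 1 of 21 called, at 2.40 ± 0.28 (adjusted p of limma 0.024), where 6.64% of all probes were called above 0. That Bmp6 call was lost with normexp.

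Markers of other blood cells and of Kupffer cells differed in how far their patterns resembled that of the globins. Across the 8 arrays, r of a list's median with the globin mean was 0.49 for the platelet and megakaryocyte genes kept (8 of 14), 0.30 for neutrophil genes, 0.17 for Kupffer cell genes and −0.38 for lymphocyte genes (10 of 13). Lists that are not of blood cells gave like values, 0.32 for hepatocyte genes and 0.44 for iron and haem handling of liver. The summed platelet level was 4.05 on the TAA 1-week NC array and 2.87 to 3.40 on the other 7. On the TAA 2-week miR-29a array, lowest for the globins, the platelet, neutrophil and Kupffer cell medians were −0.18, −0.16 and 0.01 relative to their means over the arrays. On the CCl4 1-week NC array they were −0.15, −0.04 and −0.12. The part of these cells in the globin levels was not tested.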

How the data were processed

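Liver RNA of 8 samples was hybridised to 1-colour (Cy3) arrays, 1 sample for each combination of agent, week and oligonucleotide, grouped by the labels. The intensity of each spot, per the file headers, was extracted by the authors with Agilent Feature Extraction 10.10.1.1, which corrected background and detrended each array, with no scaling between arrays. The deposited marks per spot (well above background, outlier, saturated), 0 or 1, are of the same program, per the file headers. A deposited log2 table of the authors differed from the log2 signal of an array by 1 constant (99.8% of 55657 probes to within 0.01), which put the 75th percentile near 0 and centred no gene. The steps behind it are not given in the sources used here. Its medians on TAA arrays were −3.46 with miR-29a and −3.45 with NC at 1 week, and −3.56 with miR-29a and −3.72 with NC at 2 weeks. On CCl4 arrays they were −4.06 with miR-29a and −4.03 with NC at 1 week, and −3.80 with miR-29a and −3.86 with NC at 2 weeks.

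Control and outlier spots were dropped (24 of 55681 probes lost), spots of a probe averaged, and log2 signals set relative to each array's 75th percentile. Probes well above background on 4 or more arrays were kept (24890). An additive fit of agent, week and oligonucleotide was made with limma 3.58.1 (R 4.3.3; 4 residual degrees of freedom). Interactions took 1 more term (3 residual degrees), and the agent difference within each week came from that fit. Adjustment was by Benjamini-Hochberg over all probes kept, at 0.05. In simulated data with 200 of 24890 probes changed, the fit of TAA against CCl4 recovered 34.6% of changes of 1 log2 unit and 74.9% of 2. The changed probes were drawn at random, and the globin probes varied more than most probes, so these shares do not hold for them. Recovery was not simulated for the differences within weeks or for agent by week. Probe names were updated through RefSeq (GRCm38.p6) by accession (27656), symbol (3401) or older symbol (321), and 24303 stayed as in the files. Dim signals are less precise than bright ones, and the number of arrays limits every difference. With 1 array per combination, the spread behind each p-value is what the terms of the fit leave over, unmodelled dependence between factors included. It is not a spread between like samples. The p-values do not extend beyond these samples, which may not be separate animals.

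All member probes were named. From each of 11 lists (163 genes) the rule named genes past the threshold and the 3 largest differences above background on all arrays, of which part is given (some genes are not reported here), and the 10 genes most like the members' mean profile. The members and lists were chosen with earlier results of these data known. Alternatives were normexp (offset 50), quantile normalization, median scaling, the authors' log2 table, other filters, the brightest probe per gene, matched combinations as a block, and each array left out. Scaling to 7 spike-in probes and omission of the TAA 1-week pair were chosen after seeing the data.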

Additional observations from a re-analysis of the deposited data

Results flagged for a closer look

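Within groups of 4 arrays that share an agent, a week or an oligonucleotide, single arrays far from the other 3 were looked for. Over the 7 probes tested, 8 of 42 checks found 1 (gap over range above 0.829). For 4 like arrays chance gives about 1 in 20, but each group mixed the other factors. The globin probes followed each other, so their marks are not separate. The share over all probes is not given, so the count cannot be read as particular to these genes. Among the CCl4 arrays, the 1-week NC array was low for Hba-a1 (6.31), Hba-a2 (8.87), Hbb-b2 (3.98) and Hbb-bt (5.79), and Hba-a2 was low there among the 1-week arrays as well (8.87). Among the miR-29a arrays, the TAA 2-week array was low for Hba-a1 (5.98), Hba-a2 (8.71) and Alas2 (5.02).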

How the results depend on the processing

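The labels carry no replicate numbers, so arrays were paired by the combination they share. With these 4 matched combinations as a block, 0 probes were still called for agent, week and oligonucleotide. That block gave no value within weeks or for agent by week, nor did omission of the TAA 1-week pair give one at 1 week or for agent by week. Slide and scan, shared by all arrays, had no term. Of 444 member values under alternatives, 399 kept sign and side of the threshold, 15 changed side and 30 changed sign, and all 112 for TAA against CCl4 at 2 weeks kept both. The cause of the changes was not tested.

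For TAA against CCl4, 0 probes were called, against 6 with normexp, 9 with quantile normalization, 4874 with median scaling (250 higher and 4624 lower), 10 with spike-in scaling and 0 to 1 with an array left out. At 1 week 9235 (3475 higher and 5760 lower) became 15627 (1684 and 13943) with median scaling, 5287 with no filter on dim probes, 12369 (1837 and 10532) with spike-in scaling and 2596 to 9894 with an array left out. At 2 weeks 0 became 3 with no filter and 20 with spike-in scaling. For agent by week 2935 (1652 and 1283) became 1824 with the brightest probe per gene, 4931 (4103 and 828) with median scaling, 5117 with normexp, 0 with no filter, 6370 (5763 and 607) with spike-in scaling and 0 to 3760 with an array left out; it was 0 without any of the CCl4 or TAA 2-week arrays. For 2 weeks against 1 week 0 became 851 without the TAA 1-week pair. Member probes called at 1 week were 1, against 0 with quantile normalization, no filter or spike-in scaling and 0 to 2 with an array left out. With median scaling the 1 called was Alas2 in place of Slc4a1. For agent by week they were 0, against 1 with normexp or with probes above background on all arrays, and 0 to 1 with an array left out.

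Signs changed at 1 week with median scaling for Hba-a2 (−0.046), Hbb-b1 (−0.27), Hbb-b2 (−0.21) and Hbb-bt (−0.081), and with spike-in scaling for Hbb-b1 (−0.14) and Hbb-b2 (−0.083). With an array left out the 1-week ranges were −0.27 to 1.66 (Hba-a1), −0.064 to 1.16 (Hba-a2), −0.81 to 1.45 (Hbb-b1), −0.70 to 1.46 (Hbb-b2), −0.50 to 1.53 (Hbb-bt) and −0.58 to 0.13 (Alas2). The low ends of the globins came without the CCl4 1-week NC array and the high ends without its miR-29a partner, where Hba-a1 was called (adjusted p of limma 0.047, with the lone array assumed to vary like the others). Alas2 was 0.12 at 1 week with quantile normalization, and its agent by week value 0.26 with median scaling, 0.52 with spike-in scaling and −0.50 to 0.21 with an array left out. Over both weeks Slc4a1 was −0.12 for TAA against CCl4 with median scaling, −0.74 without the TAA 1-week pair and −0.21 to 0.57 with an array left out. Its miR-29a difference was 0.036 without that pair and −0.66 to 0.23 with an array left out. For 2 weeks against 1 week, Hbb-b1 was 0.43 without that pair and Alas2 ranged from −0.049 to 0.22 with an array left out.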
